A study of Mus musculus with 6 samples.

Results

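DNA methylation was compared between mouse androgenetic haploid embryonic stem cell lines (AG-haESCs) whose names contain OG3 and lines whose names contain AGH-2. Each name was carried by 1 wild-type line (WT) and 1 line with both the H19 DMR and the IG-DMR deleted (DKO, labelled H19△DMR-IG△DMR or, for AGH-2, IG△DMR-H19△DMR), so 4 of the 6 libraries of the series entered. The WT and DKO OG3 lines were both at passage 31, the WT AGH-2 line at passage 18 and the DKO AGH-2 line at passage 29. All came from androgenetic blastocysts of strain C57BL/6 and grew on feeder in 2i-supplemented ES medium. A further DKO line named AGH-4, at passage 32, and 1 library of round spermatids served as readouts that took no part in choosing regions. Methylation was read by reduced representation bisulfite sequencing (RRBS), in which DNA is cut at CCGG by MspI and the converted reads give, at each cytosine, the percentage left unconverted. Genome sequence was divided into tiles of 500 bp, and 33550 tiles on chromosomes 1 to 19 and X held at least 3 positions with at least 10 reads in each of the 4 lines. At 10806 of these both OG3 lines lay on the same side of both AGH-2 lines, and these tiles are described here. What the names OG3 and AGH-2 stand for is not given in the sources used here, and nothing says that the lines came from separate embryos, so each p-value reflects the spread among these libraries and no more.

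AG-haESCs carry a single paternal set of chromosomes. Methyl groups on CpG cytosines are placed by the Dnmt enzymes and copied at replication with the help of Uhrf1, whereas the Tet enzymes oxidise them. Culture in 2i, a pair of inhibitors of the Mek and Gsk3 kinases, is known to lower CpG methylation of mouse ES cells over most of the genome, while CpG islands at gene starts are mostly free of methylation in any case. The H19 DMR and the IG-DMR are methylated on the paternal chromosome and control the imprinted domains of H19-Igf2 and Dlk1-Meg3.

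Before the values, 6 promoter sequences are shown because they hold measured CpGs of windows described further on, all of them for Tuba3b, A1cf, Slc6a5 and Far2 and a part for Tnp1 and Celf5. Each runs 5′ to 3′ along the gene, from 250 bases before to 50 bases after the RefSeq gene start (GRCm38.p6, the assembly of mm10), and capitals mark the CpGs with at least 10 reads in all 4 lines. Tuba3b, a testis alpha-tubulin gene, lies at chr6:145615713-145616012 on the plus strand. A1cf, which encodes the RNA-binding partner of the Apobec1 editing enzyme, lies at chr19:31868563-31868862, plus strand. Slc6a5, a glycine transporter gene, lies at chr7:49910049-49910348, plus strand. Tnp1, the gene of a spermatid protein that takes the place of histones, lies at chr1:73015850-73016149, minus strand. Celf5, an RNA-binding protein gene, lies at chr10:81482085-81482384, minus strand. The only sequence here that was lower in the OG3 lines belongs to Far2, a fatty acyl-CoA reductase gene, at chr6:148047166-148047465, plus strand.
Tuba3b: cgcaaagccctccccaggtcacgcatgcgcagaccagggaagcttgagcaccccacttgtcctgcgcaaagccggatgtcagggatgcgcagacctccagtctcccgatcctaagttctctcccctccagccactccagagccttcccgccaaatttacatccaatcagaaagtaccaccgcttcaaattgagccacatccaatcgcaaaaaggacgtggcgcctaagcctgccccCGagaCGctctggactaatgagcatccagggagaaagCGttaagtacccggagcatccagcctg
A1cf: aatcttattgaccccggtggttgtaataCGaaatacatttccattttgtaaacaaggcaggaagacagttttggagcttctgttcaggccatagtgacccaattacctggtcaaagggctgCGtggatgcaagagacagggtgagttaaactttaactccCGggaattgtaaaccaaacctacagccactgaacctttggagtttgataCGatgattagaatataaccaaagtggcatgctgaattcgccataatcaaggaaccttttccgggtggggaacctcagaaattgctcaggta
Slc6a5: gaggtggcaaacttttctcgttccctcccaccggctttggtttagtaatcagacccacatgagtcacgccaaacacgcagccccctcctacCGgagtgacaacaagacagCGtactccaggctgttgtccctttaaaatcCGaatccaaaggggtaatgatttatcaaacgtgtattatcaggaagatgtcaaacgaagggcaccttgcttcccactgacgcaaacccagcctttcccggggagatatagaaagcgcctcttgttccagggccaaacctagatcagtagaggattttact
Tnp1: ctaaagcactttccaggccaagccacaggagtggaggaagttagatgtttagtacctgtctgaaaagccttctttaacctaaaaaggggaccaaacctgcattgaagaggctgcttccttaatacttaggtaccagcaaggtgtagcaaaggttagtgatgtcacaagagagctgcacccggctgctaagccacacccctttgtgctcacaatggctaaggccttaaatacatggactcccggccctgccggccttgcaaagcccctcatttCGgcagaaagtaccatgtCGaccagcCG
Celf5: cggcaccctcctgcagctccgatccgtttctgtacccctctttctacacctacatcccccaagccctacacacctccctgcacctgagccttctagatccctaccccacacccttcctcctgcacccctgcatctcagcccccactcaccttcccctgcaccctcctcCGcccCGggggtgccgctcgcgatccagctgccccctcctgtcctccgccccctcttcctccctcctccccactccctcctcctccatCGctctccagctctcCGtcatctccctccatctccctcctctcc
Far2: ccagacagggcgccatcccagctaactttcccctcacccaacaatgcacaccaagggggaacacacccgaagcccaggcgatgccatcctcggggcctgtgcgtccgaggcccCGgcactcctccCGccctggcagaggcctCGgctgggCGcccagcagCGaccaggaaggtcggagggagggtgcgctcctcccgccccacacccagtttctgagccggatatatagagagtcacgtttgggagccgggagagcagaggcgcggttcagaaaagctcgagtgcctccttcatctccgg

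Single CpGs of these promoters differed between lines of the same name. The Tuba3b sequence has 16 CpGs and 3 were measured, at -13, -8 and 24 bases from the gene start. The CpG at -13 was at 100% in WT OG3 and 57.4% in DKO OG3, that at -8 at 0% and 58%, and that at 24 at 100% and 0%. All 3 were at 0% in both AGH-2 lines. In A1cf the CpG at -222 was at 59.8% in WT OG3 and 0% in DKO OG3, while that at -128 was at 0% and 32.3%. Both of those CpGs were at 0% in the AGH-2 lines, whereas the one at -41 was at 77.7% in DKO OG3 and 56.9% in DKO AGH-2 and at 0% in both WT lines. Far2 differed in its first measured CpG, at -137, which was at 0% and 10.3% in WT and DKO OG3 and at 99.3% and 98.6% in WT and DKO AGH-2. The other 4 measured CpGs of Far2 were at 1.02% or less in all 4 lines. Tnp1 had 6 measured CpGs in its wider window. The one at 48 bases after the start was at 21.5% and 61.3% in WT and DKO OG3 against 4.84% and 0.607% in WT and DKO AGH-2, and the one at 22 was at 0% in both OG3 lines against 4.84% and 25.5%.

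Total read counts over cytosines were 197728785 to 255726544 in the 4 lines, and the median depth of the 287448 positions with at least 10 reads in all 4 was 376 and 330 in WT and DKO OG3 against 389 and 324 in WT and DKO AGH-2. No pair of lines was a copy, since between 0.14% and 0.183% of those positions had identical counts. Across tiles Pearson's r was 0.655 between the OG3 lines, 0.482 between the AGH-2 lines and 0.533 to 0.587 for pairs of different name. By absolute difference the order was another, with the AGH-2 pair closest (mean 6.2 points), the OG3 pair at 7.3 and pairs of different name at 6.94 to 8.26. Tiles are not independent replicates.

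The OG3 lines were more methylated than the AGH-2 lines. Over the common positions the mean level was 9.53% in WT OG3 and 8.52% in DKO OG3, against 4.88% in WT AGH-2 and 6.02% in DKO AGH-2. The groups did not overlap, with means of 9.03% ± 0.716 (SD, n = 2) and 5.45% ± 0.808 (SD, n = 2). The exact permutation test, two-sided, gave p = 0.333, the smallest value that 2 against 2 can give. Within genotype the difference was 4.66 percentage points between the WT lines, whose passages differ by 31 against 18, and 2.5 points between the DKO lines, at passages 31 and 29. With reads pooled over positions, which gives deep positions more weight, levels were 6.59% and 6.14% against 3.39% and 4.77%, a difference of 2.28 points. Positions between 10% and 90% made up 18.3% and 18.8% in WT and DKO OG3 and 11.6% and 10.9% in WT and DKO AGH-2. Positions at 0% made up 66.5% and 61.4% against 72.3% and 74.5%.

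The AGH-4 line, which has the highest passage of the 5 lines, lay close to the AGH-2 lines. Over the 27112 tiles measured in all 6 libraries its mean was 5.64%, against 4.53% and 5.61% in WT and DKO AGH-2 and 8.88% and 7.96% in WT and DKO OG3. It stood just above the higher AGH-2 line and below both OG3 lines. Round spermatids had 24.1% over the same tiles. The part of passage in the difference between names was not tested.

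The higher level of the OG3 lines was found in every class of tile by place and number of measured positions. Tiles at gene starts (from 1 kb before to 0.5 kb after a start) had means of 1.46% and 1.26% in WT and DKO OG3 and 0.673% and 0.85% in WT and DKO AGH-2. Tiles in gene bodies had 14.6% and 13.2% against 7.53% and 9.46%, and tiles outside genes had 20.4% and 18.2% against 10.6% and 13.1%. The differences in points thus ranged from 0.601 at gene starts to 7.41 outside genes, while the ratio of the means was 1.79, 1.64 and 1.63 in these classes in turn. When each place was divided further by the number of measured positions per tile (3 to 5, 6 to 9, 10 or more), the groups did not overlap in any of the 9 classes and the ratios were between 1.53 and 1.96. On each of the 20 chromosomes the mean was higher in both OG3 lines than in both AGH-2 lines, by 3.24 points on chromosome 2 at the least and by 4.75 points on chromosome 10 at the most. The X chromosome had 12.7% and 11.9% against 7.51% and 7.72%.

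**Figure D1:**
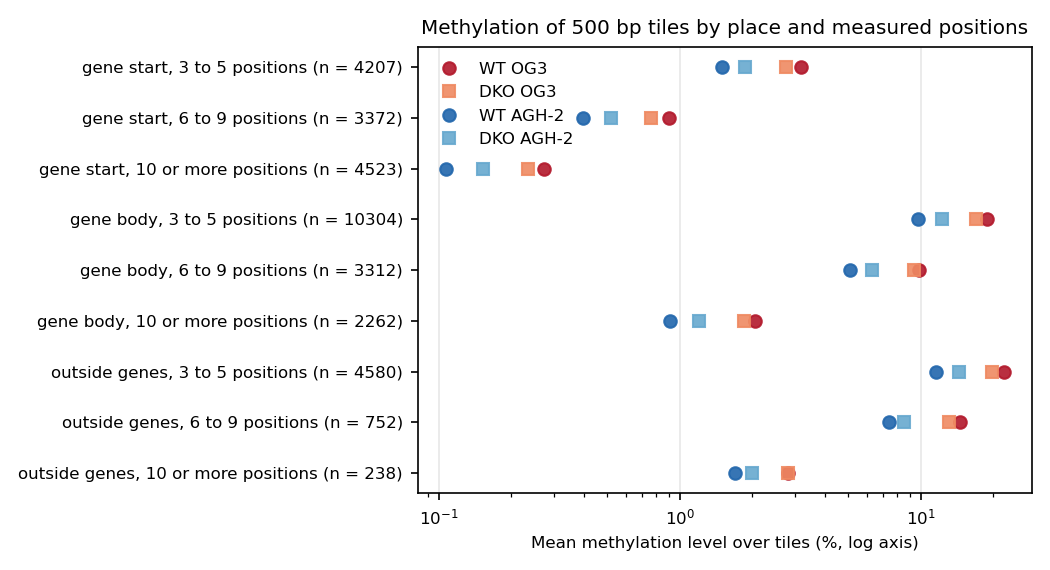
Mean methylation level (percent, log axis) over 500 bp tiles in 9 classes by place and number of measured positions, with 1 point per line. Red and orange points (WT and DKO OG3) lie to the right of blue points (WT and DKO AGH-2) in each class, with ratios of the group means between 1.53 and 1.96.

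Both OG3 lines were above both AGH-2 lines at 9008 tiles, 26.8% of all, and below both at 1798 tiles, 5.36% of all. These tiles were chosen by their levels, so the counts describe the 4 lines and carry no test. The split depends on scale, and 83.4% of the tiles without overlap were higher in OG3 as measured. The share was 58.5% after each line's levels were divided by its own mean over tiles (5501 higher and 3897 lower). It was 16.1% after that mean was subtracted (3752 and 19523), which pushes tiles with little methylation in every line to the lower side. Many separations were small. The median gap, the distance between the nearest lines of the 2 names, was 2.33 points for tiles higher in OG3 and 0.0506 points for tiles lower. Where the 95% Wilson intervals of the nearest lines were required to be apart, 4439 tiles remained higher and 434 lower by count, and these intervals cover counting error only, because reads amplified by PCR and lacking molecular identifiers need not be separate molecules. A gap of at least 10 points was found at 2179 tiles higher and 166 lower. At 25 points there were 477 higher, 1.42% of all tiles, and 26 lower, 0.0775%. At 50 points 38 were higher and 2 lower.

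The tile just inside the rule lies at the start of Rcbtb1, with 0.02352% and 0.08245% in WT and DKO OG3 against 0.02352% and 0.02296% in WT and DKO AGH-2, where the nearest lines differ by 1.8e-06 points. Just outside is a tile within Hint1, with 0.02134% and 0.04966% against 0.02134% and 0%.

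**Figure D2:**
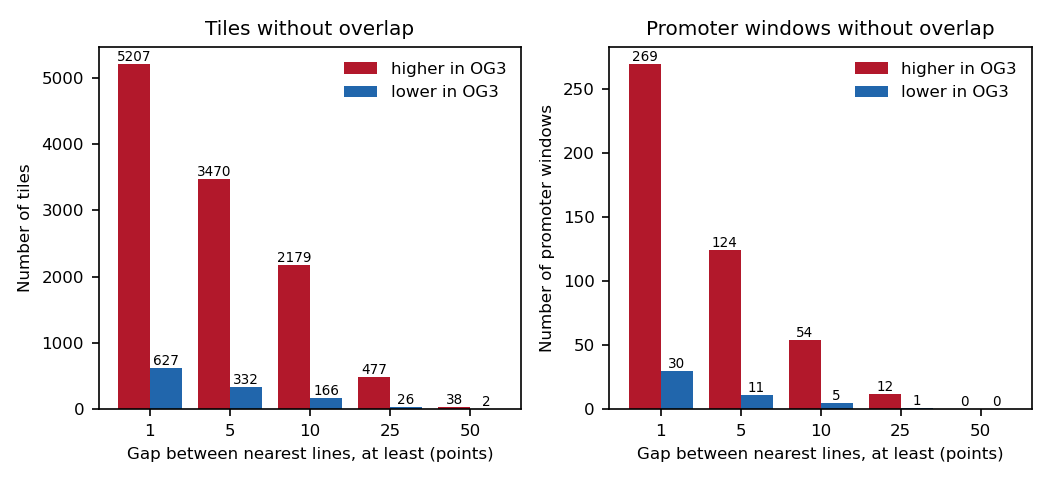
Number of tiles (left) and promoter windows (right) at which both OG3 lines lie above (red) or below (blue) both AGH-2 lines, by the smallest gap between nearest lines in percentage points. Tiles with a gap of at least 25 points number 477 higher and 26 lower in OG3, and promoter windows with at least 5 points 124 and 11.

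Separated tiles were found more often outside gene starts. Of 12102 tiles at gene starts 18.7% were higher in OG3 and 6% lower, with median gaps of 0.0237 and 0.0156 points. Of 15878 gene body tiles 31.1% were higher and 4.98% lower, with median gaps of 4.23 and 1.09 points, and of 5570 tiles outside genes 32.5% and 5.04%. Gaps of at least 25 points in the direction of OG3 were present at 13 tiles of gene starts (0.107%), 301 of gene bodies (1.9%) and 163 outside genes (2.93%). By number of measured positions, which depends on coverage as well as on CpG content, of tiles with 10 or more positions 3 (0.0427%) had such a gap, of those with 6 to 9 positions 48 (0.646%) and of those with 3 to 5 positions 426 (2.23%). All 26 tiles lower in OG3 by 25 points or more had 3 to 5 positions. Between chromosomes the share of tiles higher in OG3 varied from 25% (chromosome 18) to 29.3% (chromosome 10) and the share lower from 4.53% (chromosome 17) to 6.72% (chromosome 13).

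Round spermatid levels, which the rule did not use, were higher at the tiles higher in OG3 than at all tiles. Of 28645 tiles measured in the round spermatid library, 20.5% were at 80% or more there. The share was 31.4% among the 7483 measured tiles higher in OG3, 71% among those with a gap of at least 25 points (230 of 324) and 16.8% among those lower in OG3, or 60% of those lower with such a gap (9 of 15). Wide gaps in both directions thus had high spermatid shares. Seen from the other side, at the 5873 tiles with 80% or more in round spermatids the lines kept means of 27% and 24.8% in WT and DKO OG3 and 14.2% and 17.5% in WT and DKO AGH-2. Of these tiles 40% were higher in OG3 without overlap and 4.32% lower. At the 20234 tiles under 10% in round spermatids the lines had 2.33% and 1.91% against 1.04% and 1.34%, with 20.7% of tiles higher and 5.65% lower. There is 1 round spermatid library and no replicate check, and tiles with more methylation have more room for a gap in points.

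AGH-4, the line outside both names, was at or below the higher AGH-2 line at 45.5% of the 8504 tiles higher in OG3 that it covered, at or above the lower OG3 line at 31.1% and between the names at 23.3%. At the tiles with a gap of at least 25 points it was between them at 54.3%, on the AGH-2 side at 31.6% and on the OG3 side at 14%. A wider gap leaves more room for a level between the names, and these shares have no counterpart over all tiles. The median level of AGH-4 at the tiles with such a gap was 19.4%, against medians of 52.2% for the mean of the OG3 lines and 5.53% for that of the AGH-2 lines. Where the tiles were lower in OG3, AGH-4 was on the OG3 side at 51.4% and on the AGH-2 side at 34.4%. It therefore followed neither name throughout.

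Among tiles in or within 1 kb of a named gene, the 12 widest gaps higher in OG3 were 58.9 to 73.3 points, in tiles of 3 to 5 positions. The widest of all tiles, 73.3 points, was within Pcdh11x, a protocadherin gene on the X chromosome (120356501 to 120357000, gene body). It had 4 positions and at least 68 reads in each line, summed over positions. It was at 99.7% and 91.2% in WT and DKO OG3, 17.8% and 6.56% in WT and DKO AGH-2, 0% in AGH-4 and 100% in round spermatids. Fam122c, also on X (53314501 to 53315000, gene body), was at 77.2% and 67% against 0.709% and 0%, with 21.3% in AGH-4. Both X-linked tiles were thus high in both OG3 lines, and their round spermatid levels stood at opposite ends, since Fam122c was at 0% there.

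Phc2 is a Polycomb group gene on chromosome 4 (128747501 to 128748000, gene body). Its tile was at 99.8% and 66.3% in WT and DKO OG3 and 0% and 1.6% in WT and DKO AGH-2. It had as few as 30 reads in 1 line, summed over 3 positions, where a level of 0% allows up to 10% if these counts are separate reads. A read that spans several positions counts at each, so this limit and the like limits further on can be too low. Tle3, a Groucho family corepressor gene on chromosome 9 (61407001 to 61407500, gene body, 5 positions, at least 1608 reads), was at 88.6% and 63.1% against 4.27% and 0%, with 52.8% in AGH-4 and 99.8% in round spermatids. Cmtm6, which encodes a membrane protein that stabilises PD-L1 (chromosome 9, 114747501 to 114748000, gene body), was at 73.1% and 60.3% against 0% in both AGH-2 lines, which allows up to 1.17%. Its level was 0.424% in AGH-4 and 99.6% in round spermatids. Rtn4ip1, a mitochondrial protein gene, was at 63.5% and 77.8% against 0% in both (which allows up to 2.44%), Slx4ip, whose protein binds the Slx4 nuclease scaffold, at 90.4% and 95.9% against 25.4% and 0%, and Trappc10, a vesicle tethering complex gene, at 84.3% and 73.2% against 12.1% and 0%. The Trappc10 difference of 72.7 points was 40.5 with equal weight for positions. Mboat7, a lysophospholipid acyltransferase gene, was the only one of the 12 at a gene start (chromosome 7, 3678501 to 3679000), with 84.1% and 75.6% against 3.36% and 13.2%. Plekhb2, Prr30 and the immunoglobulin kappa locus Igk completed the 12, with gaps between 59.2 and 59.7 points, and AGH-4 stood at 58.4%, 54.1% and 79.8% in them.

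By the same rule the 12 tiles lower in OG3 had gaps of 27.7 to 47.8 points. Dok5, an adaptor of receptor tyrosine kinases on chromosome 2 (170761001 to 170761500, gene body, 3 positions, at least 384 reads), was at 0% and 9.99% in WT and DKO OG3 and 57.8% and 66.7% in WT and DKO AGH-2. Tm9sf4, a membrane protein gene of the same chromosome (153187001 to 153187500), was at 0% and 33.3% against 79.7% and 82.2%, and at 100% in AGH-4 and in round spermatids. Slc34a1, a renal phosphate transporter gene, was at 16.8% and 7.14% against 60.4% and 87.9%. B3gnt7, a glycosyltransferase gene, had the only gene start among the 12 (chromosome 1, 86305001 to 86305500), at 0% and 0.243% against 29.8% and 34.5% with at least 57 reads, where 0% allows up to 5.26%, and was at 100% in round spermatids. Gabbr2, a GABA-B receptor subunit gene, was at 0% in both OG3 lines against 27.7% and 50%, and Fyn, a Src family kinase gene, at 21.2% and 16.2% against 50.1% and 58.3%. The other 6 were Agap1, Ncoa3, Atg2a, Gbf1, Impdh1 and Prr5l, with gaps of 27.7 to 33.9 points. The Impdh1 difference of -60.3 points was -30.7 without the DKO AGH-2 line. The widest gap of all in this direction, 62.8 points, was 159830 bp from its nearest named gene Nr4a2 (chromosome 2, 56946501 to 56947000), with 0% and 0.741% against 66.7% and 63.6%.

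Neighbouring tiles formed some longer stretches, and how many measured tiles lay close enough to do so was not counted. Runs of at least 3 separated tiles in the same direction, at most 2 kb apart, numbered 32 higher in OG3 (99 tiles) and 1 lower (3 tiles). The longest had 4 tiles. That of Celsr1, an atypical cadherin gene of planar polarity (chromosome 15, 86029501 to 86032500, 22 positions), was at 18.1% and 43.5% in WT and DKO OG3 and 8.62% and 5.74% in WT and DKO AGH-2. Those of Gadd45g, a stress response gene (0.408% and 0.181% against 0.0176% and 0.0142%), and Odf2, which encodes a sperm tail and centrosome protein (0.106% and 0.742% against 0.00804% and 0.0152%), lay in sequence with little methylation in any line. Of 3 tiles, the longest stretch higher in OG3, 4500 bp, covered Cdc42bpb (23.6% and 29% against 6.94% and 12%). Next came 3 of equal length, 3500 bp, at Ankrd13b and Git1, at Grk2 (42.1% and 31.1% against 21.4% and 20.3%) and at Hs3st3b1 (1.82% and 0.333% against 0.0113% and 0.0292%). The run lower in OG3 was at Trim8, with 0.01% and 0.006% against 0.0302% and 0.0193%.

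Promoter windows, from 1 kb before to 0.5 kb after a RefSeq gene start, were measured for 9066 genes. Their mean level was 1.48% and 1.28% in WT and DKO OG3 and 0.695% and 0.925% in WT and DKO AGH-2, with medians of at most 0.0483% in any line. Both OG3 lines were above both AGH-2 lines at 1955 windows (21.6%) and below at 560 (6.18%). Here too the split depends on scale, since 77.7% of separated windows were higher in OG3 as measured, 46.8% after division by each line's mean (1059 higher and 1206 lower) and 4.03% after its subtraction (312 and 7439). Gaps of at least 5 points were present at 124 windows higher in OG3 (1.37%) and 11 lower (0.121%). These windows were poorer in CpG than most: the 300 bases around the start held a median of 8 CpGs in the 124 and 6 in the 11, against 23 in all 9066, and CCGG, read alike on both strands, was present in 73.4% and 63.6% of them against 90.6% of all. In round spermatids 28% of the 107 measured windows among the 124 and 25% of the 8 measured among the 11 were at 80% or more, against 1.4% of all.

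**Figure D3:**
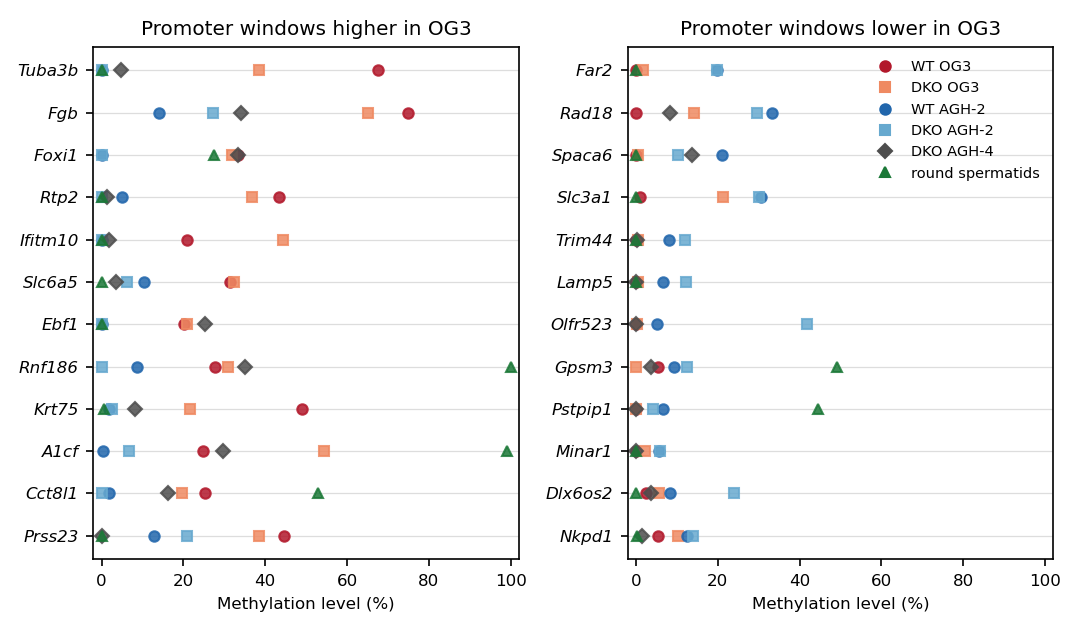
Methylation level (percent) of the 12 promoter windows with the widest gap higher (left) and lower (right) in OG3, without predicted or clone names. Each library has 1 point, or none where it did not reach the minimum. Red and orange (OG3) and blue (AGH-2) points do not overlap within a row, while AGH-4 (grey) and round spermatids (green) took no part in the choice.

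Over all windows 12 were higher in OG3 with a gap of at least 25 points. Among genes without a predicted or clone name the 12 widest gaps, described here, were 17.5 to 38.4 points. Tuba3b was at 67.5% and 38.4% in WT and DKO OG3 and at 0% in both AGH-2 lines, which allows up to 1.37%, with 4.65% in AGH-4. Fgb, the fibrinogen beta chain gene of liver (chromosome 3, window 83049363 to 83050863), was at 75% and 65% against 14% and 27.2%. Foxi1, a forkhead factor gene of ear and kidney (chromosome 11), was at 33.3% and 32% against 0% in both, which allows up to 4.35%, and AGH-4 was at 33.3%. Ebf1, a B cell and neuronal factor gene on the same chromosome, was at 20.2% and 21% against 0% and 0.178%, with 25.2% in AGH-4. Slc6a5 was at 31.3% and 32.3% against 10.5% and 6.23%. A1cf was at 24.7% and 54.3% against 0.258% and 6.76%, and Krt75, a hair follicle keratin gene, at 49.1% and 21.6% against 1.93% and 2.68%. Some of these values depend on which positions and lines enter. Without the WT OG3 line, which changes the positions that reach the minimum, the difference between names fell from 52.9 to 12 points at Tuba3b, from 32.7 to 13.3 at Foxi1 and from 33.1 to 19.3 at Krt75, and without the DKO OG3 line from 36 to 21.2 at A1cf. With a minimum of 5 reads it was 18 points at Foxi1. With equal weight for positions it was 13.1 in place of 20.5 at Ebf1, 21 at Krt75 and 16 at A1cf. For Foxi1, Ebf1 and Slc6a5 the OG3 lines differed from each other by less than 2 points. In none of these genes did that likeness extend to every single CpG. In Foxi1 the CpG at 77 was at 100% in WT OG3 and 44.6% in DKO OG3 and that at 88 at 0% and 51.3%. In Ebf1 the CpG at 29 was at 0% in WT OG3 and 21.8% in DKO OG3. In Slc6a5 the CpG at -110 was at 0.192% in WT OG3 and 60.2% in DKO OG3. There and at -159 an AGH-2 line lay above an OG3 line.

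The other 5 of the 12 were Rtp2, a chaperone gene of odorant receptors (43.3% and 36.8% against 4.94% and 0%), Ifitm10 (21% and 44.3% against 0.012% and 0.013%), Rnf186, a ubiquitin ligase gene (27.7% and 30.8% against 8.66% and 0%), Cct8l1 (25.2% and 19.7% against 1.82% and 0.192%) and Prss23, a serine protease gene (44.5% and 38.5% against 12.9% and 21%). AGH-4 was on the AGH-2 side for Rtp2 and Prss23 and on the OG3 side for Rnf186. These 12 windows held 3 to 8 positions. At Rtp2 the difference of 37.6 points was 18.8 without the WT OG3 line and 22.8 with a minimum of 5 reads, and at Ifitm10 that of 32.7 was 21 without the DKO OG3 line. With equal weight for positions the differences were 16 points at Ifitm10, 15.5 in place of 24.9 at Rnf186 and 40.1 in place of 24.6 at Prss23.

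Over all windows 1 was lower in OG3 with a gap of at least 25 points. Among genes without a predicted or clone name the widest gap in this direction was at Far2. It was at 0% and 1.74% in WT and DKO OG3 and 19.9% and 19.7% in WT and DKO AGH-2. Its difference of -18.9 points was -7.95 without the WT OG3 line. Rad18, a ubiquitin ligase gene of DNA damage tolerance, was at 0% and 14.3% against 33.3% and 29.6%. Its counts were as few as 48, from 16 reads at each of 3 positions, where 0% allows up to 6.25% if they are separate. Spaca6, a sperm membrane protein gene needed for fusion with the egg, was at 0% and 0.401% against 21.1% and 10.3%, and AGH-4 at 13.8% was within the AGH-2 range. In Spaca6 the 8 positions were mostly at 0% in all lines, and the CpG at -761 was at 0% and 1.51% against 56.4% and 87.5%. Trim44 was at 0% and 0.478% against 8.12% and 11.9%, Slc3a1, an amino acid transporter subunit gene, at 1.08% and 21.4% against 30.6% and 30.2%, and Lamp5, a lysosomal membrane protein gene of neurons, at 0.136% and 0.445% against 6.61% and 12.2%. The remaining 6, Olfr523, Gpsm3, Pstpip1, Minar1, Dlx6os2 and Nkpd1, had gaps of 2.11 to 5.03 points. The difference of Dlx6os2 and Nkpd1 turned sign, to 0.448 and 1.79 points, when the positions' levels were averaged with equal weight. By that measure the difference was -9.99 in place of -15.5 at Spaca6, -4.09 in place of -9.76 at Trim44, -4.86 in place of -9.12 at Lamp5, -3.71 in place of -8.34 at Gpsm3 and -2.57 in place of -5.3 at Pstpip1. Without the WT AGH-2 line it was -10.1 at Spaca6, -5.86 at Lamp5, -41.8 in place of -23.5 at Olfr523 and -19.9 in place of -12.1 at Dlx6os2. Without the DKO AGH-2 line it was -5.86 at Trim44, -5.13 at Olfr523, -2.48 in place of -4.67 at Minar1, -2.85 at Dlx6os2 and -1.97 in place of -5.32 at Nkpd1. Without the WT OG3 line it was -11.9 in place of -19.1 at Slc3a1 and -2.87 at Nkpd1, and without the DKO OG3 line -29.3 at Slc3a1. With a minimum of 50 reads it was 0 at Minar1 and -0.424 at Nkpd1.

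The quasi-likelihood test of edgeR, run over all regions with Benjamini-Hochberg adjustment, called promoter windows in the direction of OG3 only and no tile. Of 8510 windows with reads of both states 51 were called higher in OG3 (0.599%) and 0 lower (0%). Of 31534 tiles 0 were called higher and 0 lower (0% each), with a lowest adjusted p of 0.521. At an unadjusted p under 0.05 by the same test there were 1546 of 31534 tiles, 1425 higher and 121 lower. A threshold of 0.05 passes about that share of tiles where nothing differs. limma on log2 ratios called 0 windows and 0 tiles. The likelihood ratio test of edgeR called 136 of 8510 windows (129 higher and 7 lower) and 994 of 31534 tiles (915 and 79). The 51 calls were not stable. Without any 1 of the 4 lines, WT OG3, DKO OG3, WT AGH-2 or DKO AGH-2, edgeR called 0 windows. All 51 stayed higher in OG3 in each of these fits, which their lack of overlap in the 4 lines nearly fixed beforehand. In each such fit 1 name has a single line, which is assumed to vary like the lines of the other name. Restricting windows to at least 5 positions left 4 calls, while read minimums of 5, 20 and 50 gave 47, 36 and 46.

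The called windows had small absolute levels and a CpG content near that of all windows, with a median of 20 CpGs in the 300 bases around the start against 23. Their median was 1.81% and 2.47% in WT and DKO OG3 and 0.0217% and 0.0233% in WT and DKO AGH-2, against medians of 0.0208% and 0.0516% and of 0.0226% and 0.0235% over all tested windows. Both AGH-2 lines were at or under 0.173% in all 51, 41 had a gap under 5 points, and the median number of positions was 18 against 12. AGH-4 was under 0.1% at 37 of them and reached the lower OG3 line at 5, with a median of 0.0371%, and round spermatids were under 0.1% at 39 of 50. Windows of neighbouring genes can share positions, and 46 windows are left when those with the same positions are counted once.

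The lowest adjusted p among genes with a usual name was that of Ifitm10, a gene of the interferon-induced transmembrane family (chromosome 7, window 142371759 to 142373259, 8 positions, at least 4332 reads), at 0.000456 by edgeR. Its OG3 mean was 32.7% ± 16.5 (SD, n = 2) and its AGH-2 mean 0.0125% ± 0.000768 (SD, n = 2), with AGH-4 at 1.88%. With equal weight for positions its difference was 16 points in place of 32.7. The predicted gene Gm266 (44 positions) had the lowest of all, 0.000128 by edgeR, at 1% and 1.39% against 0.0194% and 0.0214%. Celf5 was at 1.39% and 4.36% against 0.0624% and 0.03% (adjusted p 0.00446 by edgeR). Npr2, the receptor gene of C-type natriuretic peptide, was at 8.79% and 6.5% against 0.0443% and 0.0908%, with AGH-4 between them at 3.31% (adjusted p 0.00446 by edgeR). Nfatc2, a transcription factor gene of T cells, was at 2.12% and 0.733% against 0.0131% and 0.0135% (adjusted p 0.00795 by edgeR), and Fignl2 at 1.81% and 1.14% against 0.0146% and 0.0281% (adjusted p 0.00795 by edgeR). By equal weight the difference was 2.19 in place of 1.18 points at Gm266, 1.88 in place of 2.83 at Celf5, 0.552 in place of 1.45 at Fignl2 and 0.604 in place of 0.927 at Gm30802. It was 4.32 at Celf5 and 0.721 in place of 1.42 at Nfatc2 without the WT OG3 line, 1.35 at Celf5 without the DKO OG3 line, and 1.4 at Gm30802 and 1.41 in place of 0.932 at Gm1673 without the DKO AGH-2 line. The others of the 10 lowest were the clone-named 1110018N20Rik, the predicted neighbours Gm30802 and Gm1673, whose windows overlap, and Pou5f1. Over 11 or 12 alternatives the adjusted p of Ifitm10 ranged from 2.09e-06 to 0.712, and the highest value of each of the 10 was between 0.712 and 0.776.

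**Figure D4:**
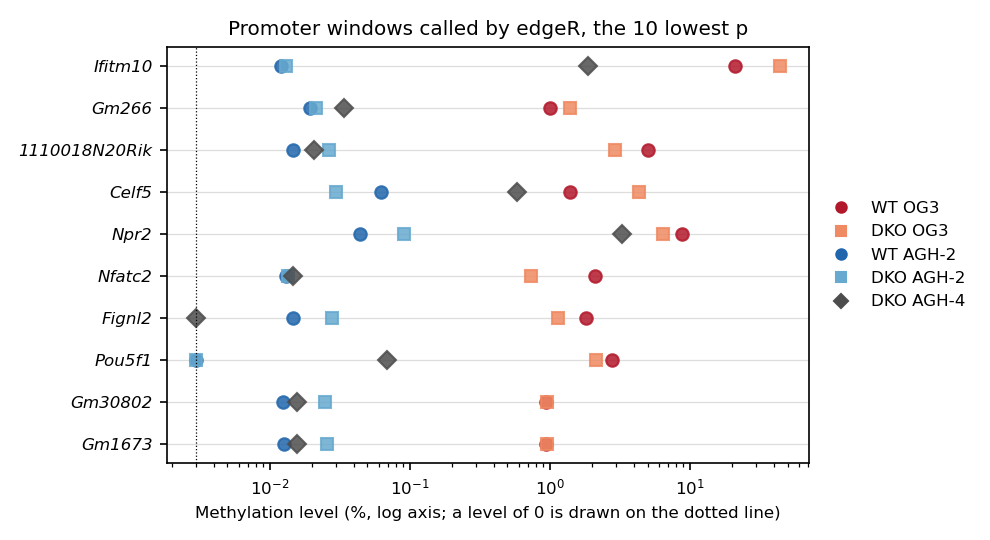
Methylation level (percent, log axis) of the 10 promoter windows with the lowest p in the edgeR quasi-likelihood test, with 1 point per line. OG3 lines (red, orange) lie between 0.733% and 44.3%, AGH-2 lines (blue) at or under 0.0908%, and AGH-4 (grey) mostly near the AGH-2 lines except for Npr2, Ifitm10 and Celf5.

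Within called windows the OG3 lines were mostly methylated at different CpGs. Over the 46 distinct windows, 135 of 847 positions reached 5% in at least 1 OG3 line, of which 25 (18.5%) did so in both, 55 in WT OG3 alone and 55 in DKO OG3 alone. A median of 83.8% of a window's methylated reads in an OG3 line came from 1 position. In Npr2 the CpG 28 bases before the start was at 49.1% in WT OG3 and 0.204% in DKO OG3, the one at 316 at 0% and 100%, and the one at 497 at 100% and 0%. Ifitm10 differs in that its CpG at -305 was high in both, at 85.5% and 73.3%. Over all tiles the share with 5% in both was 47.4% for the OG3 pair and 31.5% for the AGH-2 pair.

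Pou5f1, which encodes the pluripotency factor Oct4, was methylated at low level in the OG3 lines and also stood apart in read share. Its promoter window (chromosome 17, 35507807 to 35509307) had 4 common positions, at -757 to -625 from the start. It was at 2.81% and 2.13% in WT and DKO OG3 and at 0% in both AGH-2 lines, which allows up to 0.289%, with 0.0688% in AGH-4 (adjusted p 0.00795 by edgeR). At these positions the OG3 lines had 138 and 142 RPM (reads scaled to a library total of 1000000) and the AGH-2 lines 9.55 and 5.27, with 7.21 in AGH-4. The ratio of the nearest lines, 14.4, was the largest of all 9066 windows, and the next were 6.88 at Myo6, 5.04 at Nxpe3 and 4.78 at Mat2b, where AGH-4 had 22.1 RPM like the OG3 lines. In the opposite direction the largest ratios were 13.7 at Ddah1, 9.13 at Eloa and 5.13 at Tmem62. A ratio of 2 or more was found at 83 windows with more reads in OG3 (0.916%) and 76 with more in AGH-2 (0.838%). Over the whole Pou5f1 gene (35506032 to 35510777) both OG3 lines had 173 RPM, at 29 and 27 positions with at least 10 reads, and the AGH-2 lines 12.3 and 8.63 RPM at 8 and 12 positions. In the first 10 kb after the gene the order was kept, with 13.2 and 22.1 RPM in WT and DKO OG3 and 6.92 and 6.62 in WT and DKO AGH-2. AGH-4 had 14.3 RPM there, between the OG3 lines. From 10 to 30 kb after the gene the order was not kept, with 21.6 and 58.9 RPM in WT and DKO OG3 and 68.5 and 52.1 in WT and DKO AGH-2. This read share was looked at after the methylation result was seen, and its part in that result was not tested. Without the windows whose read share differed at least 2-fold, 50 of the 51 calls are left, by count and with no new fit. Since few of all windows differ so (0.916% and 0.838%), nearly all of any 51 would be left.

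Both AGH-2 lines had 0 reads in 2 bins of 10 kb that overlap the Topaz1 and Tcaim genes. Topaz1 encodes a germ cell protein of male meiosis and Tcaim a mitochondrial protein, and the genes are neighbours on chromosome 9. In the 10 kb from 122740001 to 122750000 the WT and DKO OG3 lines had 3674 and 4155 reads, AGH-4 4584 and round spermatids 12215, while both AGH-2 lines had 0. From 122800001 to 122810000 the counts were 11164, 9455, 4783 and 16805, again with 0 in both AGH-2 lines. A count of 0 allows up to 0.0118 RPM in WT AGH-2 and 0.0152 RPM in DKO AGH-2, whereas OG3 lines had 16.2 to 49.2 RPM. Over the Topaz1 gene as a whole (122747199 to 122802135) the AGH-2 lines had 11 and 17 reads. In the whole of Tcaim the AGH-2 lines had 2495 and 179 reads (122805513 to 122838924), and the first position after the second bin with at least 10 reads summed over both was 122825137. Among 15036 bins of 10 kb with at least 10 RPM in both OG3 lines, 10 (0.0665%) had under 5% of that in both AGH-2 lines and 2, the pair described, had 0 reads in both. In the opposite direction 3 of 14780 bins (0.0203%) qualified and 1 had 0 reads in both OG3 lines (42257 bp from Vps13c). These bins were chosen after their counts were seen.

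**Figure D5:**
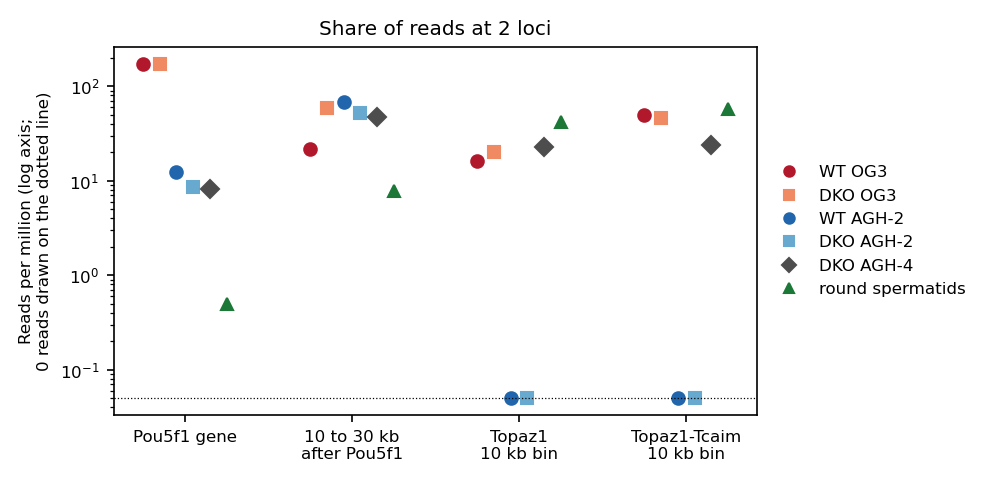
RPM (log axis, 0 reads drawn on the dotted line) in the Pou5f1 gene, the stretch from 10 to 30 kb after it, and the 2 bins of 10 kb at Topaz1 and Tcaim, with 1 point per library. The OG3 lines stand at 173 RPM in Pou5f1 against 12.3 or less in the AGH-2 and AGH-4 lines, and both AGH-2 lines have 0 reads in the bins at Topaz1 and Tcaim.

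Gene lists were described by counts of promoter windows without overlap, beside 21.6% higher and 6.18% lower among all windows. Over 10 lists 91 genes were measured, of which 21 were higher and 7 lower. Germline genes had 4 higher and 1 lower of 10 measured. Sycp3, a synaptonemal complex gene, was at 49% and 33.2% in WT and DKO OG3 and 21.1% and 0% in WT and DKO AGH-2, a difference of 30.5 points that was 19.9 without the DKO AGH-2 line. Rpl10l, a testis ribosomal protein gene (16.8% and 4.25% against 0.582% and 0.0273%), Slc25a31, a sperm ADP/ATP carrier gene (11.1% and 1.28% against 0.965% and 0.282%), and Tex14, a gene of germ cell bridges (1.49% and 0.0592% against 0.0301% and 0.0193%), were the others higher. Asz1, a piRNA pathway gene, was lower, at 6.51% and 8.98% against 11% and 26.7%. Dazl, which encodes a translational regulator of germ cells, overlapped, at 25.6% and 8.9% against 4.73% and 15.4%. So did Stra8 (85.5% and 5.92% against 0% and 22.1%), Taf7l (20.4% and 24.1% against 11.3% and 42.7%), Mael and Ddx4. The mean of the list was 22.1% and 9.53% in WT and DKO OG3 and 6.14% and 10.9% in WT and DKO AGH-2, so the names overlapped by mean. Stra8 had the highest WT OG3 level in that mean. Medians of the list were 13.9% and 6.96% against 4.04% and 1.04%, without overlap.

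Spermatid genes had 3 higher and 0 lower of 6. Tnp1 was at 28.3% and 15% against 2.57% and 7.01%, a difference of 16.8 points that was 10.2 without the WT OG3 line, while Odf2 and Catsper2 were at 0.0668% or less in all 4 lines. Of 9 pluripotency factors 2 were higher, Pou5f1 and Klf4, and 0 lower; Klf4 was at 0.0877% and 0.0922% against 0.0456% and 0.0312%, and Esrrb, Utf1 and Zfp42 overlapped at 0.108% or less. Windows of the other defining ES cell genes fixed as markers (Nanog, Sox2, Tdgf1, Lin28a, Sall4) were not measured. The measured ES markers other than Pou5f1 were thus at 0.108% or less in all 4 lines, and methylation does not show their expression. Imprinted genes had 4 higher and 2 lower of 21. The promoter window of Rasgrf1, at 0% in round spermatids, was at 1.83% and 8.12% against 0.218% and 0%. Nnat, expressed from the paternal chromosome, was at 2.68% and 0.576% against 0.301% and 0%. Snrpn and Zdbf2 were higher at 0.274% or less, and Sfmbt2 and Ube3a lower at 0.0806% or less.

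Genes of the methylation machinery had 0 higher and 1 lower of 7, the latter being Tet2 at 0.0157% and 0.0189% against 0.0199% and 0.0208%. Dnmt3b, Tet1, Tet3, Uhrf1, Setdb1 and Zfp57 overlapped. Genes of the 2i pathways had 1 higher (Gsk3a) and 1 lower (Spry2) of 9, developmental regulators 2 higher (Lhx2 and Nkx2-2) and 1 lower (Foxa2) of 14, housekeeping genes 2 higher and 1 lower of 8, and trophoblast genes 0 of 3 in either direction. For these lists and the imprinted genes the median difference between names was at most 0.0168 points, against 0.0122 over all windows. Feeder fibroblast genes had 3 higher and 0 lower of 4. Twist2, a mesenchymal factor gene, was at 15.5% and 10.7% against 7.64% and 10.1%, Fbn1, which encodes fibrillin, at 0.0494% and 1.22% against 0.0137% and 0.0145%, and Vim, which encodes vimentin, at 0.0368% and 0.0901% against 0.023% and 0%. Of the defining feeder markers only Twist1 was measured, at 0.183% or less in all 4 lines. The part of feeder cells in the difference between names was not tested.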

How the data were processed

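RRBS libraries of 4 AG-haESC lines were compared by line name, with the AGH-4 line and round spermatids as further readouts. Bismark 0.12.2 and the build mm10 are named in the submitters' processing notes. How reads were trimmed is not given in those notes or in the labels. For each position the deposited files hold 2 counts, of methylated and of unmethylated reads, together with their level as a fraction. The deposited fraction equals methylated reads over all reads within 1e-09, and levels here are percentages computed from the deposited counts. All 116290 positions inside RefSeq promoter sequences (GRCm38.p6) lay on a CpG. Positions with at least 10 reads in all 4 lines were kept, and tiles and promoter windows needed at least 3. The promoter window of a gene is the RefSeq start with most positions. AGH-4 and round spermatid levels needed 3 positions with 10 reads.

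The quasi-likelihood test of edgeR 4.0.16 (R 4.3.3) used a term per library, a line-name by methylation term and a common dispersion, two-sided, with Benjamini-Hochberg adjustment over all regions having methylated and unmethylated reads, called at an adjusted p under 0.05. It was tested on simulated data. limma 3.58.1 used log2 ratios with 2 added to each count. Levels of lines were compared by exact permutation tests. Lines of the same genotype did not deviate together (correlation -0.00637 over tiles). Named were the 12 tiles and 12 promoter windows with the widest gap in each direction, in or within 1 kb of a gene that is not a predicted or clone name, list members with a gap of at least 5 points, up to 10 called regions and the 5 longest runs. The members and lists were chosen with earlier results of these data known. Alternatives covered the read minimum, tile length, positions per region, test, scaling, genotype term and each line left out. Chromosome Y was not analysed in tiles.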

Additional observations from a re-analysis of the deposited data

Results flagged for a closer look

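The difference between names had opposite signs in the WT and the DKO lines for 3 summaries, with 1 line per name and genotype, so the difference between genotypes was not tested. The share of positions above 90% was 1.4 points higher in OG3 among WT lines and 0.4 points lower among DKO lines (a difference of -0.4). The share of positions above 0% and up to 10% differed by -2.32 points in WT and 5.63 points in DKO lines. The median over promoter windows differed by -0.00179 points in WT and 0.0272 points in DKO lines.

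Chromosome Y, which was left out of the tiles, held 73065 and 105507 reads in WT and DKO OG3, 222478 and 98038 in WT and DKO AGH-2, 11074 in AGH-4 and 90274 in round spermatids.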

How the results depend on the processing

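With genotype as a replicate block, which leaves 1 residual degree of freedom, edgeR called 12 tiles in place of 0 and 36 promoter windows in place of 51, all higher in OG3. Tiles called numbered 4 with 200 bp tiles and 994 by the likelihood ratio test. Promoter windows called numbered 4 with at least 5 positions, 136 by the likelihood ratio test and 0 by limma with or without centring. Leaving out each line in turn gave 0 to 0 called tiles and 0 to 0 called windows. Tiles without overlap numbered 10806, and 5760 with at least 5 positions, 4873 with Wilson intervals apart, 23275 after centring and 20200 to 23296 without each line in turn, where fewer lines must separate. Windows without overlap numbered 2515, and 385 with Wilson intervals apart, 7751 after centring and 4752 to 6320 without each line in turn. The percent higher in OG3 turned from 83.4 to 16.1 for tiles and from 77.7 to 4.03 for windows after centring. It was 46.8 for windows after division by each line's mean, an alternative chosen after seeing the data. Without each line in turn it was 66.8 to 82.5 for tiles, lowest without the WT AGH-2 line. For windows it was 55.2 to 85.4, lowest without the DKO OG3 line (2823 higher and 2288 lower). The difference of the mean levels was 3.58 points, 3.11 to 4.3 without each line and 2.28 with pooled reads. Of 459 alternative values for 59 named regions 2 turned sign, Dlx6os2 (0.448 points) and Nkpd1 (1.79 points) with equal weight for positions, 37 moved by more than 1 SD and 420 stayed within it. That SD was the larger of the 2 SDs within a name at the same region, each from 2 lines. Where lines of a name differ widely, large changes thus count as within it, such as 33.1 to 19.3 points at Krt75. The cause of the changes in this section was not tested. With 2 lines per name no permutation test can pass 0.05, levels under about 0.1% rest on few methylated reads, and positions with under 10 reads in any line were not compared.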
